A study of Mus musculus with 25 samples.

Results

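The suppressors of cytokine signalling, the SOCS family, were followed in macrophages through 8 genes, Cish and Socs1 to Socs7, taken by symbol from tables of 24411 genes. All 8 were measured in all 25 samples. Bone marrow-derived macrophages (BMDMs) of C57BL/6 mice were cultured in 25 ng/ml M-CSF over 4 days. They form 7 groups of 3, namely control (culture time labelled as 4 h), 100 U/ml IFN-γ with 100 ng/ml LPS for 1, 4, 12 or 24 h (IFN-γ-LPS), 10 ng/ml IL-4 for 12 h and 10 ng/ml IL-13 for 12 h. The study's methods call the IFN-γ-LPS cells primed with IFN-γ before LPS. How long before is not given in the sources used here, so hours are taken as those with LPS and the control had neither. RAW264.7 cells, a mouse macrophage-like line transformed by a leukaemia virus, form 2 groups of 2, control and 100 ng/ml LPS for 4 h, without IFN-γ. One control group serves every BMDM comparison, so time in culture and treatment cannot be told apart at 1, 12 and 24 h. A single line stands for RAW264.7, and its treatment differs from that of the BMDMs.

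SOCS proteins carry an SH2 domain, which binds phosphorylated tyrosines, and a C-terminal SOCS box, which recruits elongins B and C and a cullin so that bound proteins are marked with ubiquitin. Cytokine receptors signal through Janus kinases (JAKs) and STAT transcription factors, and STATs switch on several SOCS genes, which closes a negative feedback loop. SOCS1 and SOCS3 also block JAK activity directly, SOCS1 chiefly after interferons and SOCS3 chiefly at receptors that share gp130. CIS (the product of Cish) and SOCS2 bind activated receptors such as those for growth hormone and are classical STAT5 targets, whereas SOCS4 to SOCS7 are better known from growth factor and insulin receptor signalling.

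The stretches around the start site of Cish and before those of Socs1 and Socs3, the members with the widest range of levels among those with a promoter in the RefSeq table (GRCm38.p6), are shown because they hold motifs of transcription factors that act downstream of cytokine receptors. Capitals mark TTCNNNGAA, the core bound by STAT dimers, and a core bound by interferon regulatory factors, 2 copies of GAAA with 2 bases of any kind between them (the double GAAA motif). Each line reads 5′ to 3′ along the gene. Start sites are those of the RefSeq table. For Cish and Socs3 they differ from the GENCODE gene starts given below, and both printed stretches lie inside the GENCODE genes.
Cish (chr9:107296409-107296678, plus strand): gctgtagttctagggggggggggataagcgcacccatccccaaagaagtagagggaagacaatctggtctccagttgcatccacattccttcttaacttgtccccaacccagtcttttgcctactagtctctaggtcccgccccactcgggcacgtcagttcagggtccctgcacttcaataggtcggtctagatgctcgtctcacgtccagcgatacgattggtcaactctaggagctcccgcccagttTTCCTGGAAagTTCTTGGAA
Socs1 (chr16:10785537-10785786, minus strand): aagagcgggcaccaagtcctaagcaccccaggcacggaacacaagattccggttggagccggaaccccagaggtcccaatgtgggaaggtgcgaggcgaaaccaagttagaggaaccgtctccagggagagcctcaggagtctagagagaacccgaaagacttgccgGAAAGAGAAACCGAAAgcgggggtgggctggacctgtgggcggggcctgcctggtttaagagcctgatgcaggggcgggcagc
Socs3 (chr11:117969367-117969616, minus strand): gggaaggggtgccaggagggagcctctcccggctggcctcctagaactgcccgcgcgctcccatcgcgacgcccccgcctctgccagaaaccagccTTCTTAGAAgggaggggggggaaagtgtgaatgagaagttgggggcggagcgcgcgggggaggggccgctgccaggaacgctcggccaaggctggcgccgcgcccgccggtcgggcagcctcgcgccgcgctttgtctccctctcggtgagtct

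In windows of 300 bases, from 250 before to 50 after the start, both strands were searched. The Cish window held 2 matches to TTCNNNGAA, both in the 20 bases that begin with the start site, and the Socs3 window held 1. The Socs1 window held 2 matches to the double GAAA motif, which overlap each other. Of all 32851 promoters of this length, 8.3% held TTCNNNGAA and 3.44% held the double GAAA motif. TTC and GAA with 4 bases between them, the spacing preferred by STAT6, was in 6.95% of promoters and the NF-κB consensus in 4.51%, and neither was in the windows of Cish, Socs1, Socs3 or Socs4. A match or its absence describes these letters only, and the sequence before the GENCODE starts of Cish and Socs3 was not searched. Socs2, Socs5, Socs6 and Socs7 were not searched.

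In GENCODE M21 (GRCm38), Cish lies on chromosome 9 (107296026 to 107302784, plus strand), Socs1 on chromosome 16 (10782240 to 10785536, minus), Socs2 on chromosome 10 (95385362 to 95417180, minus) and Socs3 on chromosome 11 (117966079 to 117970047, minus). Socs4 lies on chromosome 14 (47276931 to 47296102, plus), Socs5 on chromosome 17 (87107679 to 87137839, plus), Socs6 on chromosome 18 and Socs7 on chromosome 11 (97362551 to 97398542, plus). Counting used the strand. Over all samples the members' antisense counts were between 0 (Cish) and 28 (Socs3), at most 0.921% of a member's counts (Socs5).

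Counts on the sense strand summed to between 2378639 and 3357300 per sample. Rn45s, the ribosomal RNA precursor, took 20.1% to 39.8% of them and was left out, which left 1502618 to 2532496 counts. Levels are these counts as CPM, normalized by TMM, a scaling that assumes that most genes do not change. Before TMM scaling, a sample without a count of a gene allows a level of up to 1.18 CPM in the deepest library. In the shallowest library it allows up to 2.0 CPM (3 counts of its total, counting error only). TMM factors of the samples ran from 0.717 to 1.32, and the bound on the scale of the levels is the value above divided by the factor. Gbp2, an interferon-γ target, was at 2.68 ± 1.60 CPM in control and 2694 ± 58.6 CPM at 4 h of IFN-γ-LPS, and Chil3, a marker of alternative activation, rose from 5.01 ± 1.52 CPM to 715 ± 43.4 with IL-4 and 1384 ± 14.2 with IL-13 (SD, n = 3). All 7 macrophage markers examined had counts in every BMDM group, whereas Cd3e, Cd3g, Cd8a, Ms4a1 and Fcer1a, which define T, B and mast cells, were at 0 in all samples. Cd4 reached 14.1 CPM, and the summed markers of B cells, NK cells, neutrophils, dendritic cells and mast cells reached at most 5.62 CPM in any sample. The summed level of 4 fibroblast markers was 30.8 to 77.2 CPM in BMDMs and 0 in RAW264.7 cells, and its part in the results was not tested. The antisense share of Rn45s counts separated 9 BMDM libraries (24 h, IL-4 and IL-13, 0.00603% to 0.0214%) from the other 12 (0.0386% to 0.122%). Whatever that share reflects cannot be told apart from IL-4 or IL-13 treatment, or from the step between 12 and 24 h. The same holds for 24 h of IFN-γ-LPS against control and for IFN-γ-LPS against IL-4 or IL-13 at 12 h. The 4 RAW264.7 libraries (0.0199% to 0.0283%) also lay below those 12, so it holds for control RAW264.7 cells against control BMDMs as well. In bulk RNA, fewer cells expressing a gene and less RNA per cell cannot be told apart.

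Levels were compared between members per kilobase of exon. In control BMDMs, Socs6, an adaptor of the insulin and KIT receptor pathways, led with 43.5 ± 1.56 CPM per kb (SD, n = 3), or 72.8% of the summed level of the 8 genes (72.0% to 74.1% in the 3 samples). Socs7 followed with 7.46 ± 0.932 CPM per kb, and Cish had no count. With IFN-γ-LPS, Socs3 led at every time, and its share was 86.0% at 1 h and between 66.9% and 69.9% at 4, 12 and 24 h. At 4 h Socs3 was at 279 ± 22.6 CPM per kb, Socs7 at 46.3 ± 1.93 and Socs1 at 43.9 ± 3.63, and the samples of the last pair overlapped. With IL-4 and IL-13 Socs6 again led, with 63.0% and 60.1%. In RAW264.7 cells the lead passed from Socs6 (37.8% in control) to Socs3 (64.4% with LPS). Lengths are the exon union of GENCODE M21 transcripts with a RefSeq match, which may differ from the annotation that was counted.

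**Figure D1:**
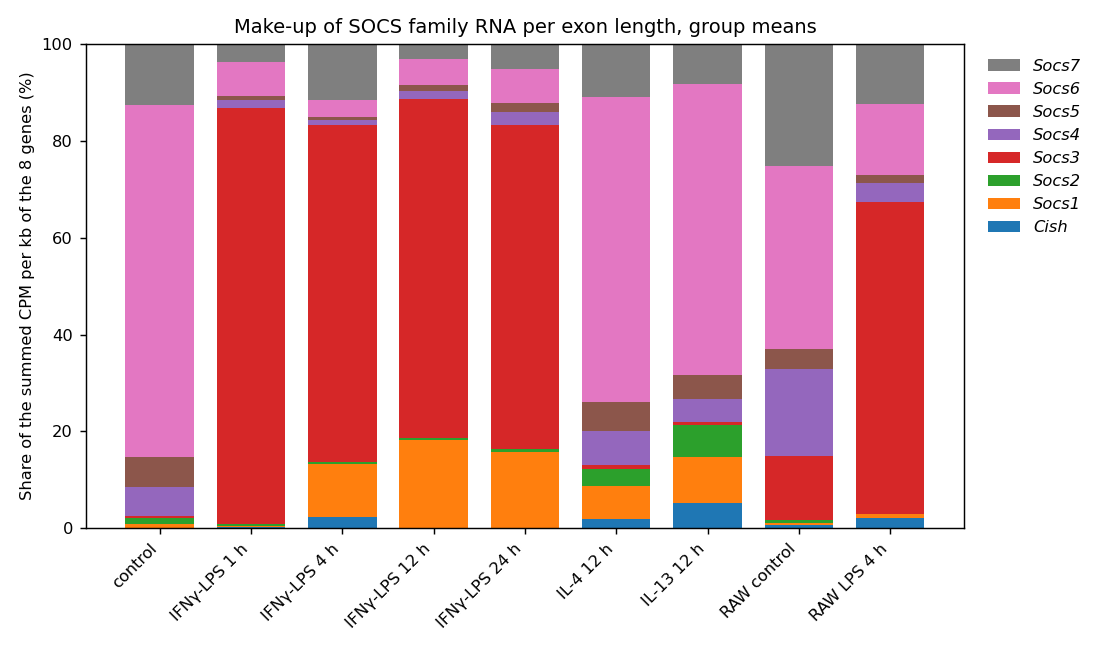
Stacked bars give each gene's percentage of the summed CPM per kb of exon of the 8 genes, from group means, in the 7 BMDM groups and the 2 RAW264.7 groups (x axis). Socs6 fills 72.8% of the control BMDM bar, and Socs3 fills 86.0% of the bar at 1 h of IFN-γ-LPS.

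Against control, 7 of the 8 genes could be tested in the IFN-γ-LPS time course, since Socs2 had too few counts. A change was called at a Benjamini-Hochberg adjusted p of at most 0.01 in edgeR's quasi-likelihood test over all genes. At 1 h, 3 members rose and 1 fell, beside 14.7% of all 9568 tested genes called higher and 11.3% lower. At 4 h, 4 rose and 1 fell (26% of all genes higher, 25.6% lower). At 12 h, 2 rose and 2 fell (23.9% higher, 23.4% lower), and at 24 h again 2 rose and 2 fell (23.9% higher, 21.3% lower). Cish, Socs1 and Socs3 had few counts in control and were tested because they were high in treated groups, so these counts describe the members and are no test of the family. The median change of the tested members was 0.23, 2.58, -0.24 and -0.17 on the log2 scale at the 4 successive times, and that of all tested genes was -0.03, -0.07, -0.03 and 0.02. The scaling matters for small changes. With library totals in place of TMM, the median change of all genes moved by -0.19, -0.53, -0.31 and -0.22 at these times, and changes are given relative to TMM.

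**Figure D2:**
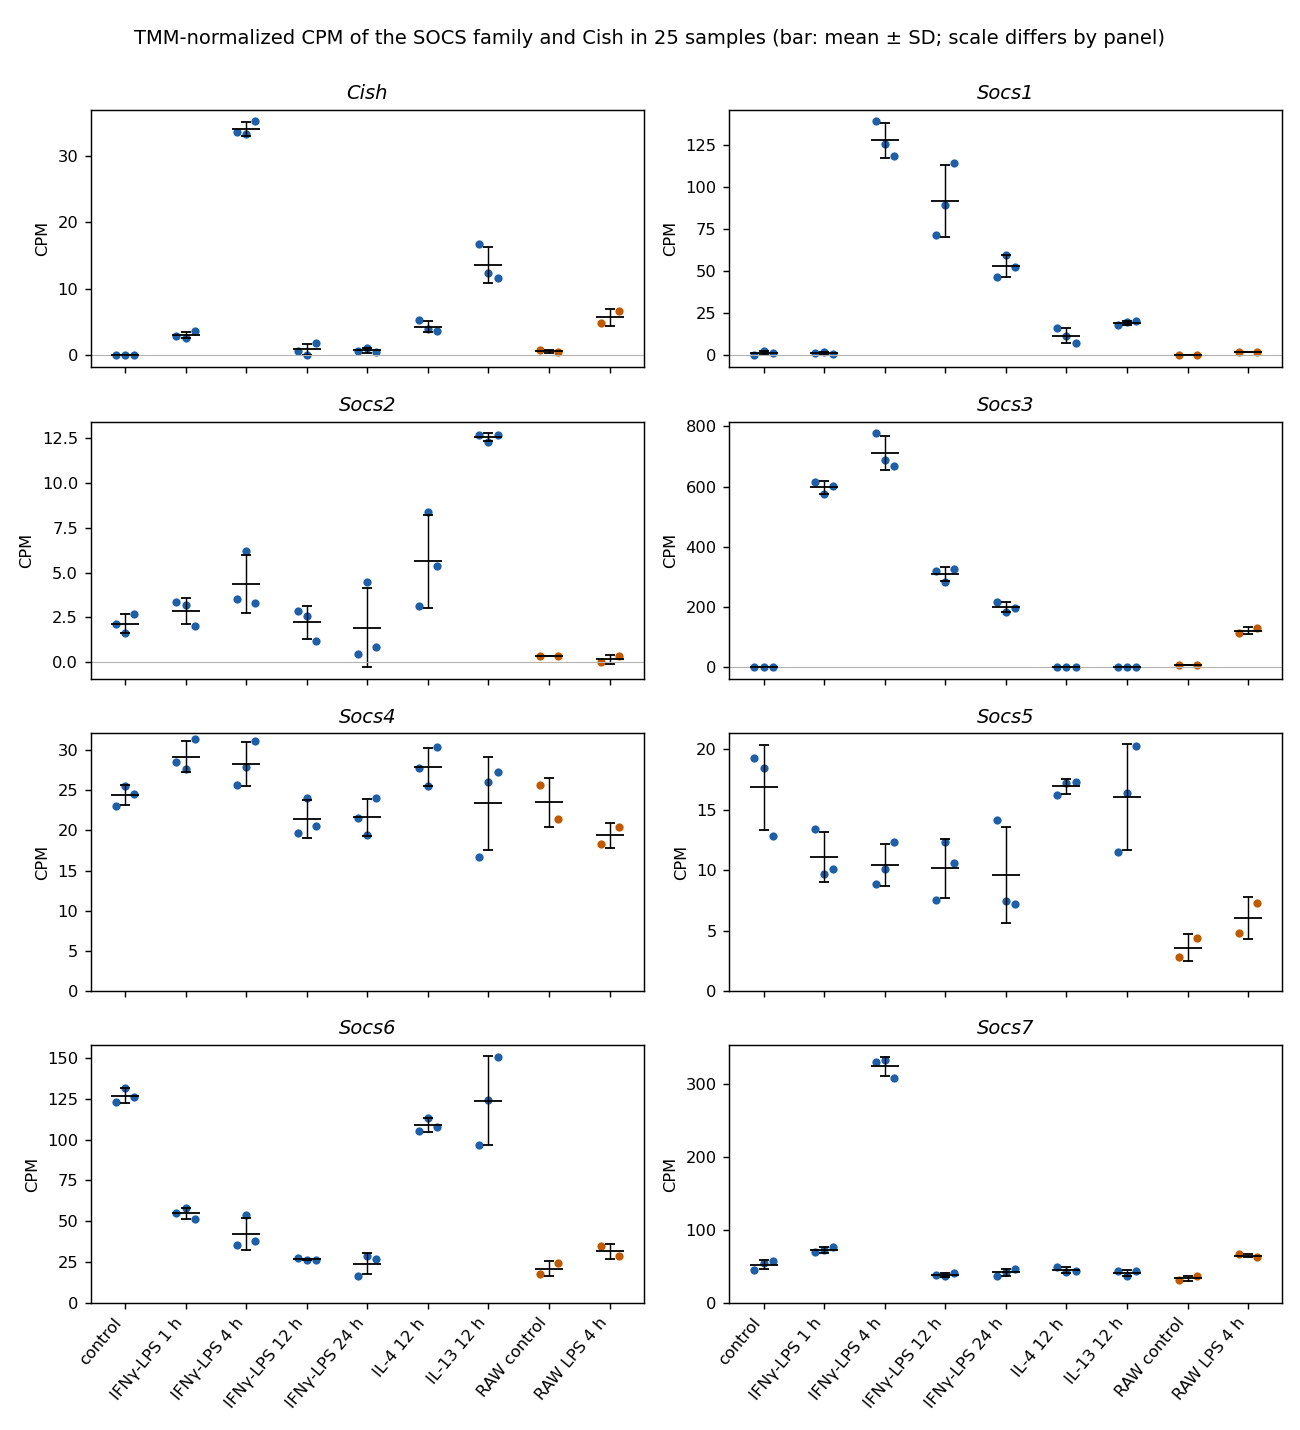
Each panel gives 1 gene's TMM-normalized CPM (y axis, linear, scale set per panel) in the 25 samples by group (x axis), with points for samples (blue BMDM, orange RAW264.7) and bars for mean ± SD. Socs3 stands at 575 to 778 CPM at 1 and 4 h of IFN-γ-LPS and at most at 1.63 CPM in control BMDMs, and Socs7 peaks at 4 h.

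Socs3, the brake on gp130 signalling, reached the highest level per kb of the 8 genes and was already high at 1 h, the first time sampled, when Cish and Socs7 were also called higher. Its levels were 0, 1.63 and 0.534 CPM in the control samples, 617, 575 and 601 CPM at 1 h, 778, 690 and 669 CPM at 4 h, 319, 283 and 327 CPM at 12 h and 216, 182 and 198 CPM at 24 h. No treated sample overlapped the control, and the highest levels were those of the first 4 h. The control held 4 counts in all, against 3184 at 1 h, a ratio per library total of 717 (95% exact conditional interval 280 to 2633, counting error only). In order of time the fitted log2 changes were 9.54 ± 0.22, 9.76 ± 0.22, 8.57 ± 0.24 and 7.97 ± 0.25 (SE), with adjusted p of 3.8e-36, 4.4e-37, 2.8e-33 and 5.6e-31. These fitted values depend on how few counts the control gave. With 1 sample left out they ranged from 8.99 to 10.76, 9.22 to 10.99, 8.04 to 9.80 and 7.44 to 9.20. The upper ends came without control replicate 2. Between 1 and 4 h the difference of Socs3 was 0.23 ± 0.09 (adjusted p = 0.042), and with library totals it was -0.11, so no direction can be given.

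Socs1, the brake on interferon-γ signalling, was high from 4 h on. It was at 0, 2.71 and 1.60 CPM in control (0, 5 and 3 counts) and had 2, 3 and 2 counts at 1 h, with overlapping samples. At 4 h it stood at 139, 126 and 118 CPM, at 12 h at 71.6, 89.1 and 114 CPM, and at 24 h at 46.4, 59.7 and 52.6 CPM. The 4 h level is thus the first above control, by a ratio of 59.2 per library total (463 counts against 8, interval 29.8 to 138). The log2 change against control was 6.35 ± 0.29 at 4 h, 5.88 ± 0.30 at 12 h and 5.13 ± 0.32 at 24 h, with adjusted p of 8.3e-24, 6.4e-22 and 2.0e-18, and at 1 h it was -0.15 ± 0.76 (adjusted p = 0.91). With 1 sample left out the values at 4, 12 and 24 h ranged from 5.79 to 7.14, 5.32 to 6.67 and 4.57 to 5.92. The upper ends came without control replicate 2. At 1 h a change of Socs1 was not detectable at this depth.

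Cish, the founding member of the family, made a short pulse. It had 0 counts in all control samples, 5, 4 and 7 counts at 1 h (2.80, 2.57 and 3.54 CPM), 38, 43 and 43 counts at 4 h (33.7, 33.4 and 35.3 CPM), 1, 0 and 3 counts at 12 h and 1, 2 and 1 counts at 24 h. Only the 1 h and 4 h samples were all clear of the floor of 3 counts. Against that floor summed over the control group, Cish was at least 4.80-fold higher at 1 h and at least 42.3-fold higher at 4 h, and both rises were called (adjusted p = 1.5e-04 and 1.4e-16). When only the 1 h and control groups were fitted, Cish had too few counts to be tested. At 12 and 24 h it was not called (adjusted p = 0.034 and 0.052). From 4 to 12 h Cish fell by 5.27 ± 0.43 on the log2 scale (adjusted p = 2.3e-14), the steepest fall of any tested member between neighbouring times. With 1 sample left out the change ranged from -4.78 to -6.47, the latter without 12 h replicate 3.

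Socs2, a close relative of Cish that curbs growth hormone signalling, stayed low. It had 3 to 5 counts per control sample and 1 to 9 in the IFN-γ-LPS samples, with overlapping groups. The ratio to control was 1.36 at 4 h (16 counts against 12, interval 0.606 to 3.16).

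Socs7, the largest of the 8 by exon length and a binder of insulin receptor substrates, rose sharply at 4 h and had returned by 12 h. Its levels were 45.1, 54.2 and 57.7 CPM in control, 69.4, 72.1 and 76.9 CPM at 1 h, 331, 334 and 309 CPM at 4 h, 38.1, 36.4 and 41.2 CPM at 12 h and 36.7, 41.8 and 46.7 CPM at 24 h. The 4 h samples lay above every other sample of the series. The log2 change was 2.58 ± 0.12 at 4 h (adjusted p = 1.1e-24) and 2.05 with library totals, and the fall from 4 to 12 h was -3.06 ± 0.12 (adjusted p = 1.7e-25). The small changes of Socs7 at 1 h (0.44 ± 0.13, adjusted p = 0.0056) and at 12 h (-0.49 ± 0.15, adjusted p = 0.0039) passed the threshold. The first lost its call without control replicate 1 or 2 or 1 h replicate 2 or 3 (adjusted p = 0.058, 0.011, 0.013 and 0.027), with library totals (0.25, adjusted p = 0.11) and in DESeq2 (adjusted p = 0.014). The second lost it without control replicate 2 or 3 or 12 h replicate 1 or 2 (adjusted p = 0.019, 0.035, 0.016 and 0.021), without the filter on low counts (0.013) and in DESeq2 (0.020), while library totals added a call at 24 h (-0.55).

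Socs6 moved the opposite way. It was at 123, 132 and 126 CPM in control, 54.8, 57.9 and 51.6 CPM at 1 h, 35.4, 53.6 and 37.7 CPM at 4 h, 27.1, 26.0 and 26.5 CPM at 12 h and 16.6, 28.8 and 26.5 CPM at 24 h. Every treated sample lay below every control sample. In order of time the log2 changes were -1.25 ± 0.13, -1.63 ± 0.15, -2.30 ± 0.15 and -2.40 ± 0.15, with adjusted p of 4.9e-11, 1.5e-13, 2.5e-18 and 1.6e-19. The 1 h change is below the study's fold cutoff (1.5 on the log2 scale), and all 4 calls were kept under the other alternatives that were run.

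Socs5, known for binding the EGF receptor, was lower by a small amount. Its levels were 19.3, 18.4 and 12.8 CPM in control, 13.4, 9.65 and 10.1 CPM at 1 h, 8.86, 10.1 and 12.3 CPM at 4 h, 7.51, 12.4 and 10.6 CPM at 12 h and 14.2, 7.46 and 7.16 CPM at 24 h. The groups overlapped with control at 1 and 24 h. The change passed the threshold only at 24 h (-0.83 ± 0.26, adjusted p = 0.0066) and missed it at 1, 4 and 12 h (adjusted p = 0.057, 0.027 and 0.013). The 24 h call was lost without control replicate 1 or 2 or 24 h replicate 2 or 3 (adjusted p = 0.044, 0.033, 0.045 and 0.066) and in DESeq2 (adjusted p = 0.046), whereas library totals added calls at 4 and 12 h (adjusted p = 1.8e-04 and 6.4e-04).

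Socs4, the closest relative of Socs5, was between 19.4 and 31.4 CPM in all 15 samples of the time course. Its log2 changes were 0.23, 0.16, -0.24 and -0.17 in order of time, with 95% confidence intervals that together span -0.62 to 0.59, and none was called. The 4 h value turned to -0.37 with library totals.

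**Figure D3:**
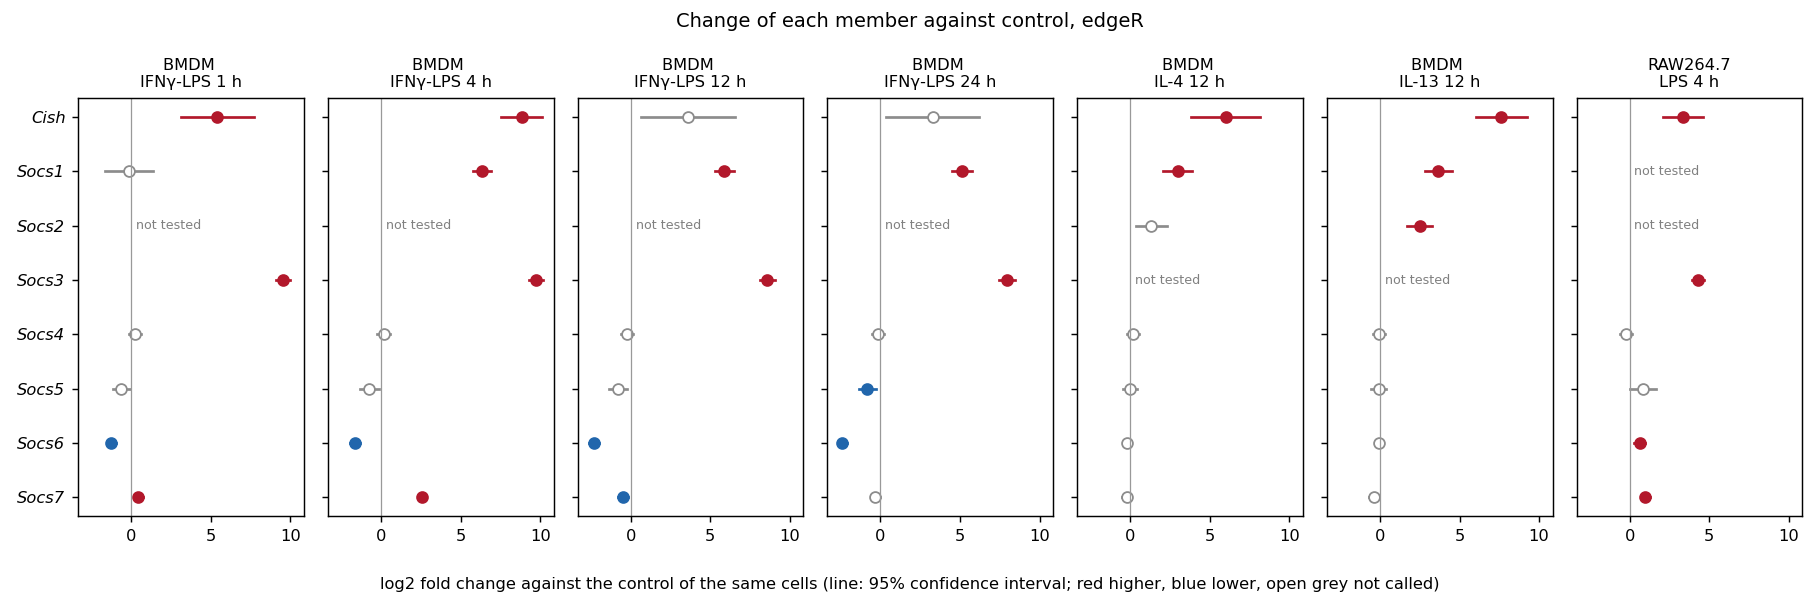
Log2 fold change against the control of the same cells (x axis) for each gene (y axis) in 7 comparisons (panels), with lines for 95% confidence intervals, red for called higher, blue for called lower and open grey for not called. Socs6 lies between -1.25 and -2.40 with IFN-γ-LPS, and Socs3 lies at 7.97 or above.

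The steps between neighbouring times put the members in order. From 1 to 4 h, Socs1 (6.50 ± 0.29), Cish (3.45 ± 0.33) and Socs7 (2.13 ± 0.11) rose, beside 19.8% of all genes called higher and 19.1% lower. From 4 to 12 h none of the 7 rose and 5 fell (16.7% higher and 19.2% lower over all genes), namely Cish, Socs7, Socs3 (-1.19 ± 0.10), Socs6 (-0.67 ± 0.19) and Socs1 (-0.47 ± 0.14). The falls of Socs6 and Socs1 are not firm. Without 4 h replicate 2 or 12 h replicate 2 that of Socs6 lost its call (adjusted p = 0.074 and 0.010), and without 4 h replicate 1 or 2 or 12 h replicate 1 or 2 that of Socs1 did (adjusted p = 0.035, 0.014, 0.074 and 0.021). Both were also lost with library totals (-0.45 and -0.25). From 12 to 24 h, Socs1 (-0.75 ± 0.15) and Socs3 (-0.60 ± 0.10) fell further (5.31% higher, 8.9% lower over all genes). Library totals moved the median of all genes by -0.34, 0.22 and 0.09 in these steps.

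IL-4 and IL-13 both signal through the IL-4 receptor α chain and STAT6. Both raised Cish and Socs1, which also rose with IFN-γ-LPS. IL-13 also raised Socs2, which was not tested in the time course. With IL-4, 2 of 7 tested members rose and none fell, beside 4.38% of all 9252 genes called higher and 3.25% lower. With IL-13, 3 of 7 rose and none fell (5.61% higher, 4.49% lower). Cish, Socs1 and Socs2 had few counts in control and were tested because they were higher with the cytokines. These counts thus describe the members and are no test of the family. Socs3 had 0 to 4 counts per sample in control, IL-4 and IL-13 and was not tested. The ratio of Socs3 to control was 1.80 with IL-4 (interval 0.458 to 8.40) and 1.5 with IL-13 (interval 0.355 to 7.21). Library totals moved the median change of all genes by 0.00 with IL-4 and 0.04 with IL-13.

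Cish rose with both cytokines. It had 10, 7 and 6 counts with IL-4 (5.24, 3.89 and 3.58 CPM) and 29, 24 and 23 counts with IL-13 (16.7, 12.3 and 11.6 CPM). Every treated sample lay above the control, which had no count. It was at least 7.90-fold higher with IL-4 (adjusted p = 3.9e-05) and at least 25.3-fold higher with IL-13 (adjusted p = 6.7e-11). When only the IL-4 and control groups were fitted, Cish had too few counts to be tested.

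Socs1 was at 16.2, 11.7 and 7.16 CPM with IL-4 and at 17.8, 19.9 and 20.2 CPM with IL-13, all above the 0 to 2.71 CPM of control. The log2 change was 2.98 ± 0.46 with IL-4 (adjusted p = 2.0e-06) and 3.68 ± 0.41 with IL-13 (adjusted p = 3.4e-10). With 1 sample left out these ranged from 2.41 to 3.77 and from 3.11 to 4.47, with the upper ends without control replicate 2. Socs2 was at 3.14, 8.34 and 5.37 CPM with IL-4 and at 12.7, 12.3 and 12.6 CPM with IL-13, against 2.15, 1.63 and 2.67 CPM in control. It rose with IL-13 (2.48 ± 0.40, adjusted p = 2.9e-06), while the value with IL-4, 1.33 ± 0.48, missed the threshold (adjusted p = 0.055). IL-13 gave the highest Socs2 level of all 9 groups.

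Socs4, Socs5, Socs6 and Socs7 were not called with either cytokine. Their log2 changes lay between -0.23 and 0.18 with IL-4 and between -0.37 and -0.05 with IL-13. Socs6 was at 105, 113 and 108 CPM with IL-4 and at 96.6, 124 and 151 CPM with IL-13, and the IL-13 samples were on both sides of the control samples.

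Between IL-13 and IL-4, none of the 7 tested members was called in edgeR, where 2 of 9252 genes were lower (0.0216%) and 8 higher (0.0865%). At an unadjusted p under 0.05, 643 genes differed. Cish came closest, with 1.63 ± 0.34 (95% confidence interval 0.94 to 2.32, adjusted p = 0.014) and every IL-13 sample above every IL-4 sample, and it passed when only these groups were fitted (adjusted p = 0.0053) or genes were not filtered (adjusted p = 0.0031). Under the other 11 of 13 alternatives it was not called, with adjusted p up to 0.23 when 1 sample was left out. For Socs2 the difference was 1.15 ± 0.33 (interval 0.50 to 1.81, adjusted p = 0.21) and for Socs1 it was 0.70 ± 0.26 (interval 0.17 to 1.22, adjusted p = 0.48). The doses were equal by weight, and no other dose was used.

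At 12 h the 2 kinds of stimulation can be compared at the same time, in a fit that holds all 8 genes. The antisense share of Rn45s separates the same groups, and what it reflects cannot be told apart from the stimulus here. Against IL-4, IFN-γ-LPS gave 2 members higher and 2 lower (22.1% and 20.6% over all 9380 genes), and against IL-13 it gave 2 higher and 3 lower (21.9% and 20.3%). Cish, Socs2 and Socs3 passed the filter through the groups where they are high, so these counts describe the members only. Socs3 was higher by 7.83 ± 0.24 against IL-4 and 8.11 ± 0.25 against IL-13. Socs1, which rose in both kinds of stimulation, was higher with IFN-γ-LPS by 2.95 ± 0.21 and 2.25 ± 0.19. Socs6 was lower, with -2.03 ± 0.16 and -2.21 ± 0.16. Cish was lower than with IL-13 (-3.94 ± 0.52, adjusted p = 4.6e-08) and lower than with IL-4 (-2.30 ± 0.67, adjusted p = 0.0039). With 1 sample left out these ranged from -3.43 to -5.15 and from -1.80 to -3.52, with -5.15 and -3.52 without 12 h replicate 3. The call against IL-4 was lost without 12 h replicate 1 or 2 or IL-4 replicate 1 (adjusted p = 0.017, 0.027 and 0.022) and in DESeq2 (adjusted p = 0.020). Socs2 was lower than with IL-13 (-2.45 ± 0.42, adjusted p = 5.4e-06). Library totals moved the median of all genes by -0.35 and -0.39 in these comparisons and raised the members lower than with IL-4 from 2 to 6. The shares of all genes called were taken with TMM only, so the count of 6 has no share beside it.

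In control RAW264.7 cells Socs4, Socs6 and Socs7 gave the highest counts of the 8. Socs4 was at 25.7 and 21.4 CPM, Socs6 at 17.7 and 24.3 CPM and Socs7 at 31.2 and 36.2 CPM, while Socs1 had 1 count over both samples and Socs2 had 2. Against control BMDMs, Socs3 was higher (3.02 ± 0.56, adjusted p = 6.4e-07, and 4.26 without BMDM control replicate 2), and Socs6 (-2.63 ± 0.15, adjusted p = 3.1e-36), Socs5 (-2.26 ± 0.34, adjusted p = 1.2e-09) and Socs7 (-0.66 ± 0.15, adjusted p = 5.3e-05) were lower. Over all 10269 genes, 32.9% were called higher and 34.7% lower in this comparison, and library totals moved the median by 0.28 and ended the Socs7 call (-0.39, adjusted p = 0.020). Primary cell against line and every other difference between these cultures cannot be told apart.

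With LPS for 4 h, 4 of the 6 tested members rose in RAW264.7 cells and none fell, beside 15.1% of all 9406 genes called higher and 12.8% lower. Cish had few counts in control and was tested through its LPS samples, so these counts describe the members only. With 2 samples per group, the spread behind these p-values is largely borrowed from other genes. Socs3 went from 6.59 and 6.16 CPM to 115 and 129 CPM (4.29 ± 0.18), a ratio of 17.5 (interval 12.5 to 25.1). Cish went from 2 and 1 counts to 12 and 19 counts, a ratio of 9.81 (interval 3.06 to 50.2), and its call (adjusted p = 1.2e-06) was not made in DESeq2 (adjusted p = 0.018). Socs7 went from 31.2 and 36.2 CPM to 66.5 and 63.4 CPM (0.98 ± 0.15, adjusted p = 3.0e-10). Socs6 went from 17.7 and 24.3 CPM to 34.6 and 28.4 CPM (0.62 ± 0.19, adjusted p = 0.0034), a call that was lost without control replicate 1 or LPS replicate 1 (adjusted p = 0.14 and 0.13), with library totals (0.44, adjusted p = 0.050) and in DESeq2 (adjusted p = 0.20). Socs1, with 10 counts against 1, and Socs2, with 1 count against 2, were not tested, and the Socs1 ratio was 9.49 (interval 1.35 to 412). Library totals moved the median of all genes by -0.18.

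The change at 4 h was then compared between RAW264.7 cells and BMDMs by an interaction term. Of 7 tested members, 1 changed more upward in RAW264.7 cells and 3 less upward, beside 11.1% and 16.4% of all 10269 genes, and library totals moved the median of all genes by 0.43. Socs6 fell in BMDMs and was higher in RAW264.7 cells, and the difference of the changes was 2.17 ± 0.24 (adjusted p = 4.0e-14). For Socs3 the difference was -5.58 ± 0.53 (adjusted p = 3.5e-18, and -6.82 without BMDM control replicate 2), for Socs7 -1.68 ± 0.20 (adjusted p = 2.5e-13) and for Cish -5.83 ± 1.79 (adjusted p = 0.0054). The Cish value was not called when any of the control samples was left out (adjusted p = 0.011 to 0.084). Cish had no count in control BMDMs, so the counts do not fix the size of its difference. For Socs1 the difference was -3.41 with a confidence interval from -7.93 to 1.12, too wide for a statement. The BMDMs also received IFN-γ, so cell type and stimulus cannot be told apart here.

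**Figure D4:**
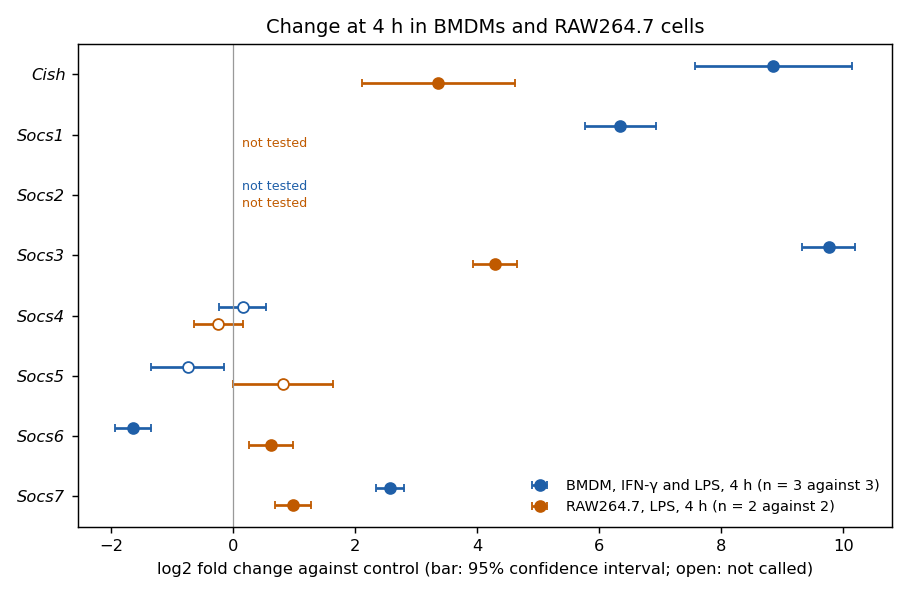
Log2 fold change at 4 h against control (x axis) for each gene (y axis) in BMDMs with IFN-γ and LPS (blue, 3 against 3) and RAW264.7 cells with LPS (orange, 2 against 2), with 95% confidence intervals. Socs6 lies at -1.63 in BMDMs and at 0.62 in RAW264.7 cells, and Socs3 lies at 9.76 and 4.29.

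The order of the 9 groups differs between members. For Cish it runs from IFN-γ-LPS at 4 h through IL-13, LPS in RAW264.7 cells, IL-4 and IFN-γ-LPS at 1 h to the rest, and only the RAW264.7 LPS and IL-4 samples overlap among the first 5. For Socs1 the first 5 are IFN-γ-LPS at 4, 12 and 24 h, IL-13 and IL-4, with no overlap between neighbours under TMM, but with library totals the samples at 4 h (86.7 to 104 CPM) and 12 h (63.4 to 93.4 CPM) overlap. For Socs3 IFN-γ-LPS at 1 and 4 h come first, then 12 and 24 h and then LPS in RAW264.7 cells. The samples at 1 and 4 h are apart with TMM but overlap with library totals (586, 540 and 565 CPM against 584, 494 and 490 CPM), where the 1 h mean is the higher, and the later neighbours do not overlap. For Socs7 IFN-γ-LPS at 4 h leads. IFN-γ-LPS at 1 h is above LPS in RAW264.7 cells with TMM and below it with library totals (65.9 to 72.3 CPM against 76.5 and 77.6 CPM), and from control BMDMs down to IFN-γ-LPS at 12 h every neighbour overlaps. For Socs4 all neighbours overlap but IL-4 and control.

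The other parts of the pathway were read from lists of genes that were drawn up with earlier results of these data known, and their counts are read beside the shares of all genes called. At 4 h of IFN-γ-LPS those shares were 26% higher and 25.6% lower. At 4 h of IFN-γ-LPS, 3 of 4 Janus kinases and 5 of 6 tested STAT genes (of 7) were called higher and none lower, and their median log2 changes were 1.06 and 3.10, beside -0.07 for all genes. Jak2, a kinase of the interferon-γ receptor, went from 60.4 ± 4.46 to 1494 ± 62.0 CPM (SD, n = 3). Stat2, which carries type I interferon signals, was lower than in control at 1 h (15.7 ± 1.69 against 26.5 ± 1.20 CPM) and higher at 4 h (498 ± 23.3 CPM).

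Of 11 ligands that use JAKs, 8 were tested and 7 were called higher at 4 h. Ligands without counts in control passed the filter through the groups where they are high, so this count is a description only. Il27 and Il6, both ligands of gp130-containing receptors, had no count in control and stood at 2343 ± 217 and 686 ± 43.6 CPM. Of 16 receptor chains, 15 were tested, 9 were higher and 3 lower. Il2rg, the common γ chain, rose from 18.6 ± 2.44 to 145 ± 8.49 CPM, and Il6ra, the chain that binds IL-6, fell from 30.1 ± 7.26 to 5.60 ± 2.84 CPM.

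Of 11 other inhibitors of JAK-STAT signalling, 3 were higher and 2 lower at 4 h, shares near those of all genes, and 5 were higher and 2 lower at 12 h (23.9% and 23.4% over all genes) and at 24 h (23.9% and 21.3%). Usp18, which blocks the type I interferon receptor, rose from 1.26 ± 0.834 to 897 ± 41.5 CPM at 4 h, and Ptpn2, a tyrosine phosphatase that acts on Janus kinases, from 23.3 ± 1.61 to 115 ± 0.460 CPM. Among 6 partners of the SOCS-box ligase, none was called at 1 h and 3 were higher at 4, 12 and 24 h. Tceb2, which encodes elongin B, went from 70.8 ± 8.20 to 109 ± 10.9 CPM at 4 h. Of 24 other SOCS-box genes, 11 were tested, and 4 were higher and 2 lower at 4 h, beside the same 26% and 25.6% of all genes, with Spsb1 (7.33 ± 3.77 to 36.0 ± 6.50 CPM) and Spsb2 (27.3 ± 1.34 to 7.72 ± 0.643 CPM) changing most. Of 6 genes whose proteins are known to be degraded through SOCS1 or SOCS3, 3 were tested. At 1 h 2 were higher and 0 lower (14.7% and 11.3% over all genes). At 4 h 1 was higher and 0 lower, and at 12 h and at 24 h 0 were higher and 1 lower. Irs2 RNA rose at 1 h (37.3 ± 2.47 to 165 ± 14.6 CPM) and was lower at 24 h (3.22 ± 2.97 CPM). These are RNA levels, and degradation of the proteins was not measured.

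With IL-13, Jak2 was the 1 Janus kinase of 3 tested to rise (196 ± 11.9 CPM), as it was with IL-4 (140 ± 3.57 CPM), and no STAT gene of 6 was called with either. Of 14 receptor chains tested, 4 were higher and 1 lower with each cytokine, beside 4.38% and 3.25% of all genes with IL-4 and 5.61% and 4.49% with IL-13, among them Csf2rb, the β chain shared by the GM-CSF, IL-3 and IL-5 receptors, at 771 ± 57.4 CPM with IL-13 against 363 ± 11.9 CPM in control. None of the 6 ligase partners was called with either cytokine. In RAW264.7 cells with LPS, 1 of 3 Janus kinases, 5 of 6 STAT genes and 6 of 7 ligands were called higher and none lower, beside 15.1% and 12.8% of all genes. Jak2 went from 31.5 ± 3.54 to 119 ± 8.22 CPM and Stat2 from 15.4 ± 0.223 to 36.3 ± 2.77 CPM (SD, n = 2), and Lif, a gp130 ligand without a count in control, stood at 540 ± 14.6 CPM. Lif passed the filter through the LPS samples, so the ligand count is a description only.

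The genes whose log2 CPM ran most like a member's over the 21 BMDM samples, among 10028 genes, are given as a description, since samples of a group share their treatment. For Socs3 they were Mir155hg, H2-Aa and Slfn2 (Pearson's r 0.991, 0.991 and 0.990), and for Socs1 Aldh1b1, Themis2 and Tor3a (0.945, 0.940 and 0.939). For Cish they were Ddhd1, Rpl7 and Nfil3 (0.926, 0.904 and 0.888), and for Socs2 Itgad, Chil3 and Mllt3 (0.835, 0.809 and 0.805). The first for Socs6 were Klhl9, Aplp2 and Fam198b (0.972, 0.971 and 0.971), and for Socs7 Swap70, Gmeb2 and Dusp14 (0.963, 0.958 and 0.957). For Socs4 they were Wrn, Wisp1 and Far1 (0.818, 0.802 and 0.784) and for Socs5 Cltc, Tmem245 and Eef2k (0.840, 0.836 and 0.832).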

How the data were processed

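The authors trimmed reads of rRNA-depleted, strand-specific libraries (CASAVA 1.8.2, Trimmomatic 0.33), aligned them to mm10 with STAR 2.5.1 and deposited raw read counts per gene symbol for each sample, unnormalized and per strand. The annotation release was not given in the sources used here. Reads in no gene were 62.7% to 69.1% of each file and were left out, as was Rn45s. Sense counts entered edgeR 4.0.16 under R 4.3.3 (TMM, filterByExpr by group, robust quasi-likelihood fit with 1 mean per group) in 5 fits, with Benjamini-Hochberg adjustment over all tested genes and calls at an adjusted p of at most 0.01 without a fold cutoff, where the study also used one. Standard errors are the absolute log2 change over the square root of F. DESeq2 1.42.0 served as an alternative, and Python 3.11.15 with SciPy 1.17.1 and matplotlib 3.10.9 made tables and figures. BMDM groups have 3 samples and RAW264.7 groups 2, described as independent RNA samples. Depth was 1502618 to 2532496 counts per sample.

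Members, gene lists and tests were chosen with earlier results of these data known. All 8 members were named in every comparison. From each list, up to 2 called genes with the largest change and a group mean of at least 5 CPM could be named. Like genes were the 3 with the highest Pearson's r of log2 CPM (prior count 2) for each member reaching 10 CPM. Each fit was first tested on simulated data. Alternatives were DESeq2, RLE scaling, no filter beyond 1 count, Rn45s kept, unstranded counts, the replicate block, only the groups compared, the study's fold cutoffs, each sample left out, and library totals without TMM, which was added after seeing the data. BMDMs given LPS alone were not analysed here.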

Additional observations from a re-analysis of the deposited data

Results flagged for a closer look

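By an interaction term, the change at 4 h of 4 members differed between RAW264.7 cells with LPS and BMDMs with IFN-γ-LPS. The values on the log2 scale were -5.83 for Cish, -5.58 for Socs3, 2.17 for Socs6 and -1.68 for Socs7. Cish lost its call when any BMDM control sample was left out. It had no count in those samples, so the counts do not fix the size of its value. Antisense counts entered only the alternative with unstranded counts. They were above the control (0 counts for both genes) for Socs3 and Socs7. Socs3 had 6 counts at 1 h, 13 at 4 h and 6 at 12 h of IFN-γ-LPS summed over 3 samples, and Socs7 had 13 at 4 h. The cause was not tested. Sense counts of the same groups were 3184, 2581 and 1545 for Socs3 and 1181 for Socs7. Groups of 2 or 3 samples were too small to test for outlying samples. Replicate pairs were compared by chi-square per degree of freedom over genes with at least 10 counts, which gave 1.30 to 4.53. At 12 h of IFN-γ-LPS, replicate 3 gave 4.53 against replicate 1 and 3.62 against replicate 2. Replicates 1 and 2 of that group gave 1.30.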

How the results depend on the processing

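Of 53 called changes of members, 43 kept their call under every alternative other than the study's fold cutoffs, and none turned direction. Of 53 not called, 15 turned direction under at least 1 alternative. Counts of members are listed below only where they moved by more than 1.5-fold or to or from 0. Smaller moves are left out, so the list is not complete. Shares of all genes called were taken in the main setting only, so these counts describe the effect of processing and not the members. With the study's fold cutoffs added, the members called lower were 0 at 1 h, 1 at 12 h, 1 at 24 h, 2 from 4 to 12 h and 0 from 12 to 24 h, and 2 were called higher with LPS in RAW264.7 cells. DESeq2 called 1 lower at 12 h, 1 at 24 h and 1 at 12 h against IL-4, and 2 higher in RAW264.7 cells. Without the filter, 1 was lower at 12 h and 1 higher with IL-13 against IL-4. With library totals, 2 were lower at 4 h, 1 from 1 to 4 h, 3 from 4 to 12 h and 6 at 12 h against IL-4, and 2 were higher in the comparison of changes between cells. With only the groups compared, 3 were lower from 4 to 12 h and 1 at 12 h against IL-4, and 1 was higher with IL-4 and 1 with IL-13 against IL-4. Leaving out 1 sample gave 1 to 2 lower at 12 h, 1 to 2 at 24 h, 0 to 1 from 1 to 4 h, 3 to 5 from 4 to 12 h and 1 to 2 at 12 h against IL-4, and 1 to 2 higher in the comparison of changes between cells. Apart from the lost calls given with the results, leaving out 1 sample added calls for Socs5 at 12 h (without control replicate 3), Socs6 from 1 to 4 h (without 4 h replicate 2), Socs1 in RAW264.7 against BMDM control (without BMDM control replicate 1), Socs2 at 12 h against IL-4 (without IL-4 replicate 1), Socs5 at 12 h against IL-13 (without IL-13 replicate 1) and Socs5 in the comparison of changes between cells (without BMDM control replicate 3).

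Direction turned with library totals for Socs4 at 4 h (-0.37), Socs3 from 1 to 4 h (-0.11), Socs5 from 4 to 12 h (0.18) and from 12 to 24 h (0.045) and Socs4 in RAW264.7 against BMDM control (0.20), and for Socs5 with IL-4 in DESeq2 (0.00091) and without the filter (0.0030). None of these was called. Leaving out 1 sample gave ranges across 0 for Socs1 at 1 h (-0.71 to 0.64), Socs5 from 1 to 4 h (-0.24 to 0.055) and from 4 to 12 h (-0.20 to 0.13), from 12 to 24 h Cish (-0.80 to 0.90), Socs4 (-0.020 to 0.15), Socs5 (-0.43 to 0.15) and Socs6 (-0.24 to 0.090), with IL-4 Socs5 (-0.17 to 0.10), with IL-13 Socs4 (-0.19 to 0.11), Socs5 (-0.28 to 0.10) and Socs6 (-0.21 to 0.098), for Socs5 with IL-13 against IL-4 (-0.27 to 0.11) and Socs4 in RAW264.7 against BMDM control (-0.20 to 0.068). The cause was not tested.

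In the time course, deviations of same-numbered samples had a mean correlation of 0.0201 (highest 0.1535, 2 of 30 pairs over 0.1). Differently numbered samples had a mean of -0.0101 (highest 0.0823, 0 of 60 pairs over 0.1). Weak pairing by replicate number is thus not excluded. With the replicate block the call of no member changed (4 higher at 4 h, as without it).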
